A study of Mus musculus with 6 samples.

Results

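The genes described here belong to the integrated stress response (ISR) and to the amino acid and tRNA charging pathways it is known to control. A fixed list of 47 symbols was taken, and the rows of the deposited table with such a symbol and a mean of at least 10 counts over the 6 libraries were kept. This gave 47 genes of the 55536 in the table. They fell into 6 roles, with 6 transcription factors, 7 further targets and feedback regulators, 9 enzymes of asparagine, serine and one-carbon metabolism, 8 amino acid transporters, 14 cytosolic aminoacyl-tRNA synthetases and 3 kinases of the translation factor eIF2. Ddit3 stood on 2 rows under different identifiers, and the row with almost no counts was left out.

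In the integrated stress response, a kinase that senses a shortage of amino acids, haem or protein folding capacity phosphorylates eIF2. General translation then slows, while the mRNA of the transcription factor ATF4 is translated more. ATF4, with C/EBP partner proteins, is known to raise transcription of amino acid transporters, biosynthetic enzymes and tRNA synthetases, and T cells rely on these genes for growth after activation. Because ATF4 is controlled largely at translation, its mRNA level is not a measure of its activity.

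RNA came from T cells of OT-I mice, isolated from lymph nodes, labelled wildtype in genotype and grown in complete RPMI medium with serum, 2-mercaptoethanol and non-essential amino acids, collected 2 h after addition of disulfiram (DSF) or of DMSO, the solvent dimethyl sulfoxide. The T cell receptor transgenes of OT-I mice recognise an ovalbumin peptide and yield mostly CD8 T cells, and both groups share them. DSF is a thiuram disulfide known as an inhibitor of aldehyde dehydrogenases, and the labels used here name neither its dose nor a stimulus. Each group held 3 libraries labelled as biological replicates, of 18082264 to 21893720 counts each, with no animal or culture named, so p-values measure the spread between these libraries. The columns were read as DMSO and DSF from the deposited group codes DO and DF, and every direction rests on that reading. The libraries carried 7 T cell markers at a summed 1930 to 1958 CPM, counts scaled to the TMM-adjusted library size, with DMSO and 1812 to 1857 with DSF. Cd8a averaged 411 CPM with DMSO and 350.0 with DSF, and Cd4 1.22 and 1.63. Of the markers of other cells, 7 of B cells summed to 222 to 230 CPM with DMSO and 205 to 215 with DSF, and 9 of myeloid and dendritic cells to 149 to 160 and 129 to 145, with no marker of either list at 0 in all libraries.

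DSF moved parts of this gene set in both directions, by small amounts. Trib3, Slc1a4, Cebpg, Ddit3, Atf5, Ppp1r15b, Slc38a2, Eif2ak3 and Atf4 were among 14 genes that rose, and Ddit4, Shmt1, Slc7a6, Sesn2 and Cebpb were among 7 that fell. The remaining 26 did not pass. The serine pathway enzymes and most tRNA synthetases were among those 26. At an adjusted p under 0.05 in edgeR's quasi-likelihood test, with Benjamini-Hochberg adjustment over all tested genes, 21 of the 47 genes (44.7%) changed, beside 22.9% of all 14318 genes tested. These genes are well expressed, with a median of 2543 counts against 424 over all tested genes. Of the 33 with a mean of at least 1000 counts, 14 (42.4%) changed, beside 34.2% of all genes with that many counts. The median log2 fold change was 0.033 over the 47 genes and -0.0027 over all tested genes. Of the 21 changes, 17 lay within 1.25-fold either way. DMSO and DSF libraries did not overlap in 27 of the 47 genes (57.4%), beside 35.4% of all tested genes, shares not matched for counts.

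**Figure D1:**
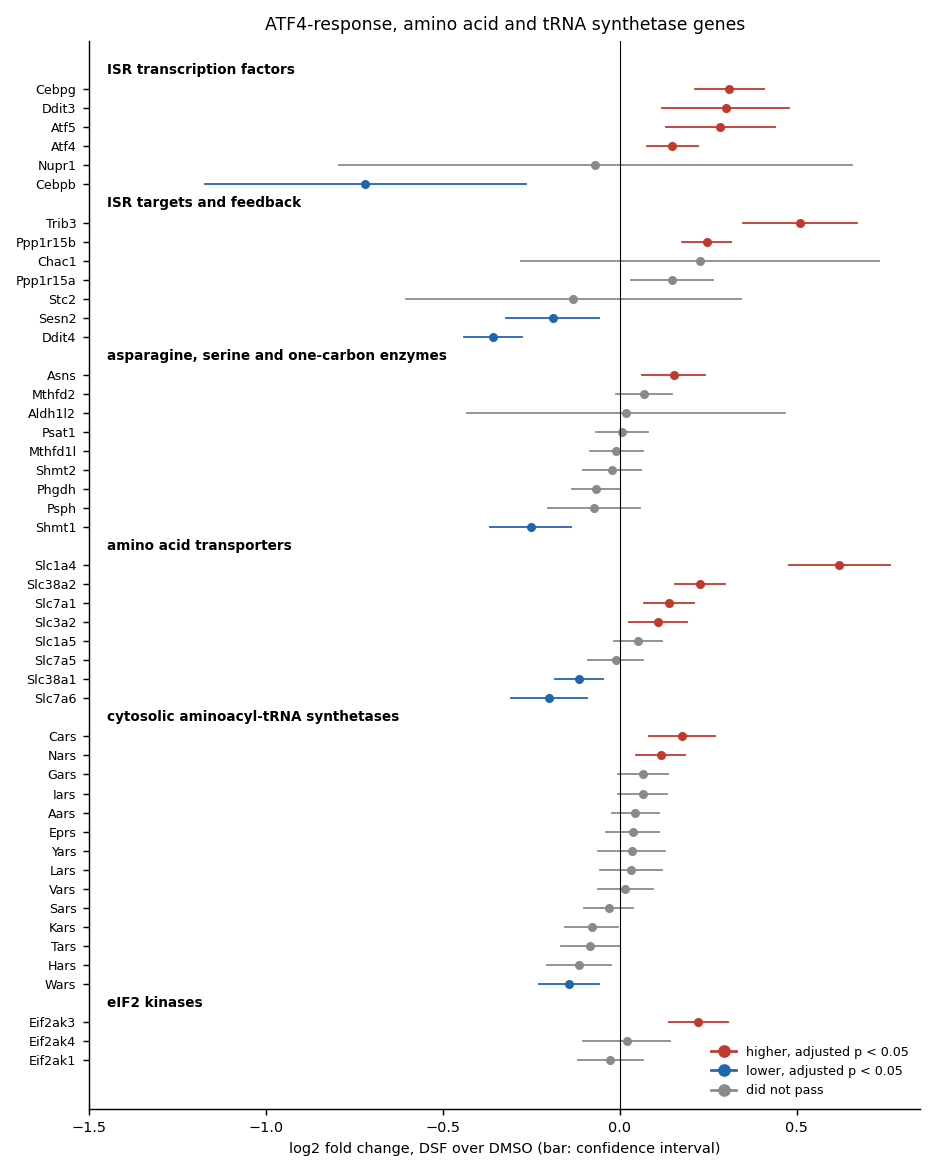
Log2 fold change of DSF over DMSO (x axis) for each of the 47 genes, grouped by role, with points for the estimate of edgeR's quasi-likelihood fit and bars for its 95% interval. Slc1a4 stands farthest to the right at 0.62 and Cebpb farthest to the left at -0.72, and most of the 14 synthetases lie close to 0.

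The calls were not equally firm. In 14 alternative analyses, 9 of the 21 genes passed every time, namely Atf4, Trib3, Ppp1r15b, Ddit4, Asns, Slc1a4, Slc38a2, Slc7a6 and Cars. The sign of the fold change was kept in all 14 for each of the 21. Leaving out DSF library 1 left 3 genes lower in place of 7. With limma on log2(TPM + 1), where TPM are the length-scaled abundances deposited by the authors, 9 genes were higher and 2 lower, and Atf5, Cebpb, Cebpg, Sesn2, Shmt1, Slc3a2, Slc7a1, Slc38a1, Wars and Eif2ak3 no longer passed. Over all genes that analysis called 837 higher and 546 lower, beside 1655 and 1621. The authors' deposited table gave 17 of the 47 genes an adjusted p under 0.05, beside 16.2% of all tested genes, and all 17 were among the 21.

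ATF4 and C/EBP proteins are known to bind a composite element called CARE, for C/EBP-ATF response element. Its letters TGATGNAA were searched on both strands of RefSeq promoter windows on GRCm38.p6, each from 250 bases before to 50 bases after an annotated start. Promoters were given for 36 of the 47 genes, and the letters stood in those of 10 (27.8%), beside 4.51% of all 27025 genes with such a window. The longer form TGATGCAAT stood in those of 3 genes (8.33%), beside 0.222% of all. Of the 11 genes that rose and have a promoter window, 3 held TGATGNAA and 0 held TGATGCAAT. Matches are printed with 11 bases on either side, each read 5′ to 3′ on the strand on which the element reads TGATGNAA, with the element in capitals. They are shown because they set genes that rose beside genes that carry the same letters and did not pass. A match is a string of letters and not a measured binding site. The first lines are the 3 genes that rose.
Asns, chr6:7693214-7693243, minus strand: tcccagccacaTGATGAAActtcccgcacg
Slc1a4, chr11:20332699-20332728, plus strand: caggctggagaTGATGCAAcgcaggaggca
Trib3, chr2:152344028-152344057, plus strand: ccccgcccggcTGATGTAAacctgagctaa
The next are genes that did not pass.
Aars, chr8:111033840-111033869, minus strand: tcagagcgctcTGATGAAAagtgacccgct
Chac1, chr2:119351038-119351067, minus strand: cctggcaggagTGATGCAAcggcagggaag
Gars, chr6:55037960-55037989, minus strand: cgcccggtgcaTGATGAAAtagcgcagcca
Iars, chr13:49682126-49682155, minus strand: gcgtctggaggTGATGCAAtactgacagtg
Nupr1, chr7:126625562-126625591, plus strand: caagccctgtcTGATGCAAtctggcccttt
Tars, chr15:11399655-11399684, plus strand: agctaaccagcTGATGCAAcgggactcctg
Yars, chr4:129189895-129189924, plus strand: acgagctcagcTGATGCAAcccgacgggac
Counted from the RefSeq start along the gene, the match began at -23 in Asns, at -4 in Slc1a4 and at 15 in Trib3. Among the genes that did not pass it began between -193 in Chac1 and 10 in Aars.

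Of the 6 transcription factors, 4 rose, 1 fell and 1 did not pass, at a median log2 fold change of 0.22. These calls make up 83.3% of the role, beside 22.9% of all tested genes. Atf4, the central factor of the response (GRCm38, chromosome 15 at 80255184 to 80257541), stood at 326, 333 and 309 CPM with DMSO and 368, 358 and 345 CPM with DSF. The lowest DSF library lay above the highest DMSO library. Its rise was 1.11-fold, a log2 fold change of 0.15 ± 0.035 (SE) with adjusted p = 0.00182. At a mean of 267 TPM with DMSO, its mRNA was the most abundant per length of the 47.

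Cebpg, which encodes a C/EBP protein that pairs with ATF4, was at 68.3, 68.6 and 70.7 CPM with DMSO and 85.6, 83.0 and 88.8 CPM with DSF. Every DSF library exceeded every DMSO library, and the rise was 1.24-fold (log2 0.31 ± 0.047 (SE), adjusted p = 5.88e-06). The exons of Cebpg overlap Gm44836 on the same strand, which had at most 0.217 CPM in any library. Atf5, a relative of Atf4 whose mRNA is likewise under translational control, was at 22.4, 27.3 and 24.4 CPM with DMSO and 28.0, 29.3 and 33.1 CPM with DSF. Its groups were separate by a narrow margin, and it rose 1.22-fold (adjusted p = 0.0056), a call lost when DSF library 3 was left out (adjusted p = 0.0778). Exons of Atf5 overlap those of Nup62 on the opposite strand, which was at 137 to 145 CPM with DMSO and 140.1 to 147 with DSF, and no source used here says if the counting was strand-aware.

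Ddit3 encodes CHOP, a C/EBP family protein linked to cell death under prolonged stress. It was at 12.5, 13.1 and 14.6 CPM with DMSO and 15.3, 16.5 and 17.6 CPM with DSF, with every DSF library above every DMSO library. The rise was 1.23-fold (adjusted p = 0.0116), and it no longer passed without DMSO library 1 (adjusted p = 0.0562), without DMSO library 2 (adjusted p = 0.0521) or without DSF library 3 (adjusted p = 0.0932), nor with DESeq2 (adjusted p = 0.0782). Its exons overlap those of Mars, the methionine tRNA synthetase gene, on the opposite strand, at 99.0 to 102 CPM with DMSO and 102 to 110.3 with DSF.

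Cebpb, which encodes C/EBP beta, was scarce, at 2.82, 4.05 and 2.52 CPM with DMSO and 1.55, 1.69 and 2.45 CPM with DSF. All DSF values lay below all DMSO values, though DSF library 3 came close to DMSO library 3. It fell to 0.608 of its DMSO level (log2 -0.72 ± 0.22 (SE), adjusted p = 0.0173), but leaving out DMSO library 2 (adjusted p = 0.209), DSF library 1 (adjusted p = 0.0954) or 2 (adjusted p = 0.0838) ended the call, as did DESeq2 (adjusted p = 0.107). Its exons overlap those of Tmem189 on the opposite strand, which was at 64.1 to 68.8 CPM with DMSO and 64.7 to 69.3 with DSF, far above Cebpb itself, and the part of such reads in the Cebpb value was not tested. Cebpb is also expressed by myeloid cells, whose 9 summed markers were lower with DSF in every library, as given above. Of the 7 tested, 3 were called lower (42.9%, beside 11.3% of all tested genes) and 0 higher. The 3 were Xcr1, at 0.506 of its DMSO level (adjusted p = 2.73e-06), Clec10a at 0.368 (adjusted p = 0.0209) and Mpeg1 at 0.84 (adjusted p = 0.042). Clec10a was scarce, at a mean of 0.84 CPM with DMSO. Lyz2, Csf1r, Itgam and Cst3 did not pass. Cst3 was the most abundant of the 9 at means of 112 and 104 CPM (adjusted p = 0.17). The lower sum was not particular to myeloid markers. Summed T cell and B cell markers were also lower in every DSF library, while the 4 summed markers of CD4 T cells were higher. The part of myeloid cells in the Cebpb value was not tested, and in bulk RNA fewer cells of a type and less RNA per cell cannot be told apart. Nupr1, a small stress-induced chromatin protein gene, had 0.753 ± 0.0961 and 0.727 ± 0.186 CPM with DMSO and DSF (mean ± SD, n = 3, as for every such pair of means) and did not pass. Its 95% interval for the fold change ran from 0.577 to 1.58.

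**Figure D2:**
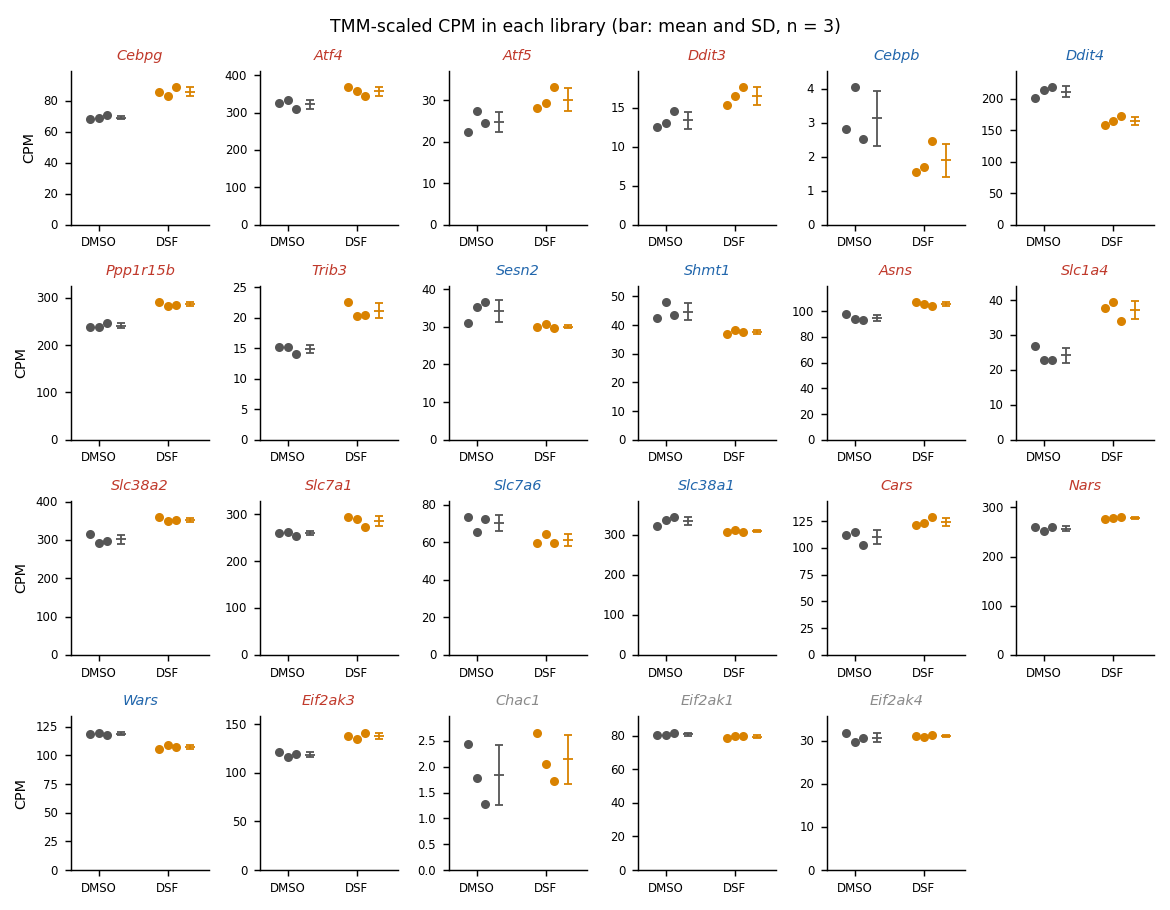
CPM scaled by TMM (y axes from 0) in each of the 6 libraries for the 23 genes described library by library, with replicates 1 to 3 from left to right within a group, bars for mean and SD (n = 3), and names in red for a rise, blue for a fall and grey for genes that did not pass. Trib3 and Slc1a4 show wide gaps between the groups, whereas Eif2ak4 and Chac1 overlap.

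Of 7 targets and feedback regulators, 2 rose, 2 fell and 3 did not pass (57.1% called, beside 22.9% of all tested genes). Trib3 encodes a pseudokinase that binds ATF4 and restrains it. The libraries gave 15.2, 15.3 and 14.1 CPM with DMSO and 22.6, 20.4 and 20.5 CPM with DSF, so that even the lowest DSF value stood well above the highest DMSO value. Trib3 rose 1.42-fold (log2 0.51 ± 0.078 (SE), adjusted p = 6.96e-06), the second largest rise among the 47 after Slc1a4.

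Ppp1r15b encodes CReP, the constitutive subunit that directs a phosphatase to eIF2. It stood at 238, 238 and 247 CPM with DMSO and 291, 282 and 285 CPM with DSF, and the groups were far apart relative to their spread. The rise was 1.19-fold (adjusted p = 1.09e-06). The inducible counterpart Ppp1r15a, which encodes GADD34, had means of 37.6 ± 0.424 and 41.7 ± 2.83 CPM and did not pass (adjusted p = 0.0622), although its libraries did not overlap, and it did pass without DSF library 2 (adjusted p = 0.0166). The 95% interval of its fold change was 1.02 to 1.20.

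Ddit4, which encodes REDD1, a brake on the growth kinase complex mTORC1, moved the other way. It was at 202, 214 and 219 CPM with DMSO and 158, 164 and 172 CPM with DSF, with no overlap. It fell to 0.780 of its DMSO level (log2 -0.36 ± 0.04 (SE), adjusted p = 1.87e-08). Sesn2, which encodes a leucine sensor that also restrains mTORC1, was at 30.9, 35.2 and 36.5 CPM with DMSO and 29.9, 30.6 and 29.6 CPM with DSF. DMSO library 1 came close to DSF library 2, and the fall to 0.877 (adjusted p = 0.0317) ended without DMSO library 2 or 3 or any of the 3 DSF libraries (adjusted p between 0.0664 and 0.19) and with DESeq2 (adjusted p = 0.145).

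Chac1 encodes an enzyme that degrades glutathione and is known as a sensitive ATF4 target. Its libraries held 2.44, 1.77 and 1.29 CPM with DMSO and 2.66, 2.05 and 1.73 CPM with DSF, with overlapping groups, and it did not pass (adjusted p = 0.587). At this depth the 95% interval of its fold change still spanned 0.825 to 1.66. Stc2, which encodes a secreted stress-response glycoprotein, was as scarce, at 1.95 ± 0.271 and 1.78 ± 0.199 CPM, and did not pass, with an interval of 0.658 to 1.27.

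Among the 9 biosynthetic enzymes, Asns rose, Shmt1 fell and 7 did not pass, at a median log2 fold change of -0.0092. The share called, 22.2%, was near the 22.9% of all tested genes. It lay below the 34.2% of genes with a mean of at least 1000 counts, which most but not all of the 9 had. Asns, the asparagine synthetase gene and a textbook ATF4 target (chromosome 6 at 7675169 to 7693254), was at 97.7, 94.3 and 93.3 CPM with DMSO and 107, 106 and 104 CPM with DSF. The groups were separate, and the rise was 1.11-fold (log2 0.15 ± 0.043 (SE), adjusted p = 0.00945). Shmt1, the cytosolic serine hydroxymethyltransferase gene, was at 42.6, 48.0 and 43.4 CPM with DMSO and 36.8, 38.3 and 37.5 CPM with DSF. It fell to 0.840 of its DMSO level (adjusted p = 0.00105), without overlap between the groups. Its exons overlap those of Smcr8 on the opposite strand, at 73.0 to 83.7 CPM with DMSO and 79.2 to 84.0 with DSF.

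The 3 genes of serine synthesis did not pass. Phgdh, which encodes the first enzyme of the pathway, was at 335 ± 5.58 and 319 ± 8.83 CPM, Psat1 at 249.9 ± 10.9 and 251 ± 5.68 CPM and Psph at 30.0 ± 2.03 and 28.5 ± 0.172 CPM. Their fold changes had 95% intervals of 0.910 to 1.00, 0.954 to 1.06 and 0.868 to 1.04. Exons of Psph overlap those of Cct6a on the opposite strand, at 272 to 289.5 CPM with DMSO and 233 to 255 with DSF. The mitochondrial folate enzymes did not pass either. Shmt2 was at 181 ± 8.60 and 178 ± 6.14 CPM, Mthfd2 at 156 ± 3.53 and 164 ± 6.20 CPM and Mthfd1l at 173 ± 3.16 and 172 ± 2.39 CPM, with intervals of 0.931 to 1.04, 0.992 to 1.11 and 0.944 to 1.05. For these abundant genes a rise of the size seen for Trib3 lies outside the interval. Aldh1l2, a mitochondrial folate dehydrogenase gene at 2.26 ± 0.245 and 2.27 ± 0.603 CPM, was scarce and did not pass. Its interval was wider, at 0.742 to 1.38, and ended just under the 1.42-fold rise of Trib3.

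Of the 8 amino acid transporters, 4 rose, 2 fell and 2 did not pass. The share called was 75.0%, beside 22.9% of all tested genes and 34.2% of those with a mean of at least 1000 counts. Slc1a4 encodes ASCT1, a carrier of alanine, serine and cysteine, and had the largest rise of the 47 genes. It was at 26.8, 22.9 and 22.9 CPM with DMSO and 37.9, 39.4 and 34.1 CPM with DSF, and the lowest DSF library stood well above the highest DMSO library. The rise was 1.54-fold (log2 0.62 ± 0.07 (SE), adjusted p = 3.09e-08). Its close relative Slc1a5, which encodes the glutamine carrier ASCT2, had means of 261 ± 1.89 and 270.5 ± 3.99 CPM and did not pass (fold interval 0.990 to 1.09). Per length, Slc1a5 mRNA was far more abundant with DMSO, at 140.0 TPM against 8.02 for Slc1a4.

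The 2 sodium-coupled transporters of small neutral amino acids went opposite ways. Slc38a2, which encodes SNAT2 and is known to be induced when amino acids run short, was at 315, 292 and 297 CPM with DMSO and 359, 348 and 352 CPM with DSF. It rose 1.17-fold (adjusted p = 5.06e-06) with no overlap. Slc38a1, which encodes SNAT1, was at 323, 338 and 343 CPM with DMSO and 307, 313 and 308 CPM with DSF. It fell to 0.924 (adjusted p = 0.0109), a call lost when DMSO library 3 was left out (adjusted p = 0.0704), and likewise DSF library 1 (adjusted p = 0.0556) or 3 (adjusted p = 0.068). The libraries of Slc38a1 were nonetheless separate.

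Carriers of cationic amino acids were likewise split. Slc7a1, which encodes the arginine and lysine carrier CAT1, was at 261, 262 and 254 CPM with DMSO and 293, 289.7 and 273 CPM with DSF. It rose 1.10-fold (adjusted p = 0.00327), with DSF library 3 nearest to the DMSO range. Slc7a6, which encodes an exchanger of cationic and neutral amino acids, was at 73.3, 65.6 and 72.4 CPM with DMSO and 59.5, 64.7 and 59.5 CPM with DSF. It fell to 0.871 (adjusted p = 0.00502), and DSF library 2 lay just under DMSO library 2. Slc3a2 encodes the heavy chain CD98 that carries SLC7A5 and SLC7A6 to the surface. It passed narrowly at 1.08-fold (adjusted p = 0.0461), with means going from 175 ± 5.95 to 188 ± 8.56 CPM and overlapping libraries. That call ended in 9 of the 14 alternatives, 4 of which each left out a library, DMSO 1 or 3 or DSF 1 or 2 (adjusted p between 0.0566 and 0.216). Slc7a5, the light chain LAT1 that imports leucine, had means of 219.8 ± 10.1 and 218 ± 5.12 CPM and did not pass (fold interval 0.941 to 1.05).

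The 14 cytosolic synthetases, which load amino acids onto tRNAs, included 2 that rose, 1 that fell and 11 that did not pass. Their log2 fold changes ran from -0.14 to 0.18 with a median of 0.033, beside a median of -0.0027 over all tested genes. The 3 calls make up 21.4% of the role, beside 22.9% of all tested genes. The share lies below the 34.2% of genes with a mean of at least 1000 counts. All 14 had that many, the lowest being Yars at a mean of 1863. For the 11 that did not pass, every 95% interval of the fold change lay between 0.868 and 1.10. Cars, for cysteine, was at 112, 115 and 103 CPM with DMSO and 121, 123 and 128 CPM with DSF. It rose 1.13-fold (adjusted p = 0.00456) with separate groups. Nars, for asparagine, was at 259, 252 and 260.0 CPM with DMSO and 277, 279 and 279 CPM with DSF. It rose 1.08-fold (adjusted p = 0.0103), which did not hold when DMSO library 2 was dropped (adjusted p = 0.0582) or when DSF library 3 was (adjusted p = 0.0518). Wars, for tryptophan, which interferon is also known to induce, was at 119, 120.0 and 118 CPM with DMSO and 106, 109 and 108 CPM with DSF. It fell to 0.905 (adjusted p = 0.0103) without overlap, but did not pass without DSF library 1 (adjusted p = 0.0536).

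Of the synthetase genes that did not pass, Hars, for histidine, came closest, at 98.3 ± 1.15 and 90.8 ± 0.642 CPM and a fold of 0.923 (adjusted p = 0.0563). Aars, for alanine, was at 266 ± 3.90 and 275 ± 2.32 CPM. Its exons overlap those of the exosome subunit gene Exosc6 on the same strand. Exosc6 was at 6.55, 6.19 and 5.00 CPM with DMSO and is listed at 0 in all 3 DSF libraries, and whether reads were assigned differently between the 2 genes was not tested. Yars, for tyrosine, was at 92.7 ± 4.29 and 95.0 ± 1.89 CPM, and C77080, whose exons overlap those of Yars on the opposite strand, was at 3.05 to 4.33 CPM with DMSO and 15.4 to 17.7 with DSF. In TPM with DMSO the 14 genes spanned a narrow range, from 53.4 ± 2.54 for Yars and 53.5 ± 3.45 for Lars to 211 ± 4.80 for Sars. Yars and Lars did not differ beyond their spread, nor did Nars at 149 ± 3.33 and Kars at 147 ± 2.93.

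**Figure D3:**
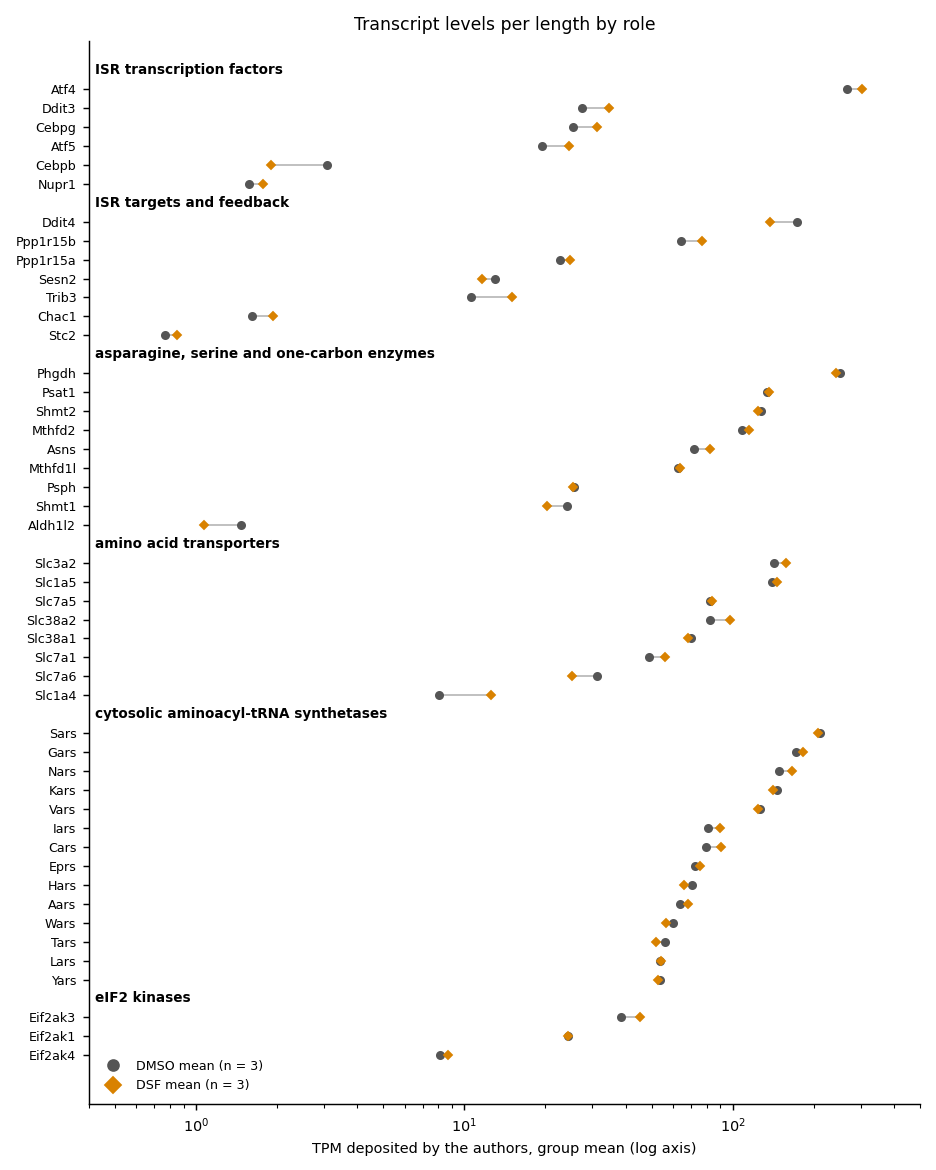
Mean TPM deposited by the authors (x axis, log scale) for each of the 47 genes with DMSO (grey circles) and DSF (orange diamonds), 3 libraries a group, ordered by level within each role. The synthetases lie between 53.4 and 211 TPM with DMSO, while the transcription factors span 1.58 to 267.

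The eIF2 kinases start the response. Eif2ak3 encodes PERK, which senses misfolded protein in the endoplasmic reticulum, and was at 121, 116 and 119 CPM with DMSO and 138, 135 and 141 CPM with DSF. It rose 1.17-fold (log2 0.22 ± 0.041 (SE), adjusted p = 9.65e-05), with all DSF libraries above all DMSO libraries. Eif2ak1 encodes HRI, which responds to haem and mitochondrial stress, and was at 80.5, 80.5 and 81.9 CPM with DMSO and 78.7, 79.7 and 80.1 CPM with DSF. Eif2ak4 encodes GCN2, which senses uncharged tRNA, and was at 31.9, 29.7 and 30.6 CPM with DMSO and 31.0, 30.9 and 31.4 CPM with DSF. Neither of the last 2 passed (adjusted p = 0.756 and adjusted p = 0.87), with fold intervals of 0.921 to 1.05 and 0.930 to 1.10. The libraries of Eif2ak1 were separate by under 1 CPM, and those of Eif2ak4 overlapped. In TPM with DMSO the order was Eif2ak3 at 38.4 ± 0.789, Eif2ak1 at 24.4 ± 0.760 and Eif2ak4 at 8.12 ± 0.413, each further apart than its spread. The exons of Eif2ak1 overlap those of Aimp2 on the opposite strand, at 35.6 to 41.9 CPM with DMSO and 30.7 to 36.0 with DSF.

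Further genes of the pathway were taken from 7 lists of 118 names. Of these, 3 names matched no row, among them Mars1 and Gcn1, whose older symbols Mars and Gcn1l1 stand in the same lists and were tested. A further 6 were below the low-count filter and 109 were tested. Of the 109, 12 rose and 19 fell, 28.4% in all beside 22.9% of all tested genes. The 19 falls became 12 without DSF library 3 or with DESeq2, and 6 with limma on log2(TPM + 1). Of 21 further ATF4-response genes, 6 rose and 1 fell (33.3% called). Atf3, a stress factor induced downstream of ATF4 and of other signals, was at 26.7, 28.8 and 25.7 CPM with DMSO and 76.4, 67.7 and 69.7 CPM with DSF. It rose 2.63-fold (adjusted p = 1.59e-18), a larger fold than that of any of the 47 genes above. Sqstm1, the gene of the autophagy receptor p62, rose 1.30-fold (adjusted p = 3.89e-11), and Herpud1, of endoplasmic reticulum protein disposal, 1.22-fold (adjusted p = 4.07e-05).

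Of 10 further cytosolic synthetase and complex genes, 4 fell and 0 rose (40.0% called, beside 22.9% of all tested genes, of which 11.6% were higher and 11.3% lower). Most of the 10 had a mean of at least 1000 counts, and 34.2% of all genes with that many were called. The arginine synthetase gene Rars fell to 0.835 (adjusted p = 1.63e-05), Farsa, of the phenylalanine enzyme, to 0.879 (adjusted p = 0.00497), and Eef1e1, a scaffold of the synthetase complex, to 0.781 (adjusted p = 1.94e-05). Of 17 mitochondrial synthetases, 3 fell and 0 rose, and this share of 17.6% lies below the 22.9% of all tested genes. Yars2 went from 21.6 ± 1.16 to 15.8 ± 1.03 CPM and Vars2 from 27.4 ± 1.25 to 22.9 ± 1.40 CPM. Pars2, at 6.16 ± 0.588 and 4.64 ± 0.405 CPM, was lower (adjusted p = 0.0372), and lost its call on dropping DMSO library 1 or 2 or any DSF library (adjusted p between 0.0511 and 0.156).

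Of 16 genes for eIF2, its exchange factor eIF2B and kinase regulators, 5 fell and 0 rose (31.2% called, beside 22.9% of all tested genes). Most of the 16 had a mean of at least 1000 counts, and 34.2% of all genes with that many were called. Eif2b1, a subunit of eIF2B, fell to 0.820 (adjusted p = 6.17e-05). The fourth eIF2 kinase gene, Eif2ak2, which encodes the antiviral kinase PKR, was at 133, 129 and 122 CPM with DMSO and 114, 105 and 106 CPM with DSF and fell to 0.849 (adjusted p = 0.000173). Dnajc3, which encodes a chaperone that restrains PERK and PKR, fell to 0.890 (adjusted p = 0.00369). With limma on log2(TPM + 1), the calls of Eif2ak2 (adjusted p = 0.145), Dnajc3 (adjusted p = 0.141), Farsa (adjusted p = 0.0511) and Vars2 (adjusted p = 0.192) ended.

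In the folate list, 5 of 16 tested genes fell, beside 11.3% of all tested genes. The cytosolic enzyme gene Mthfd1 fell to 0.863 (adjusted p = 0.000705) and the mitochondrial folate carrier gene Slc25a32 to 0.823 (adjusted p = 0.00315). The call of Slc25a32 ended with limma on log2(TPM + 1), at adjusted p = 0.0604. Of 15 further amino acid transporters 2 rose, Slc36a4 by 1.29-fold (adjusted p = 0.000255) and the taurine carrier gene Slc6a6 by 1.08-fold (adjusted p = 0.0378). The call of Slc6a6 ended in 9 alternatives, 4 of which each left out a library, DMSO 1 or 3 or DSF 2 or 3 (adjusted p between 0.0926 and 0.133). The share of 13.3% in that list lies below the 22.9% of all tested genes.

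Of 15 amino acid sensing genes upstream of mTORC1, 3 rose and 1 fell, and this share of 26.7% is near the 22.9% of all tested genes. The sestrin genes, whose products restrain mTORC1, moved apart. Sesn1 was at 62.9, 60.0 and 58.2 CPM with DMSO and 84.1, 85.0 and 85.8 CPM with DSF and rose 1.41-fold (adjusted p = 1.26e-09). Sesn3 was at 294, 289.7 and 313 CPM with DMSO and 244, 239.5 and 248 CPM with DSF and fell to 0.816 (adjusted p = 1.12e-07). Sesn2 was also lower, a call that ended in 7 of the 14 alternatives. The fall of Sesn3 did not pass with limma on log2(TPM + 1) (adjusted p = 0.122). Fnip1, which encodes a partner of folliculin in lysosomal signalling, rose 1.26-fold (adjusted p = 6.19e-06).

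**Figure D4:**
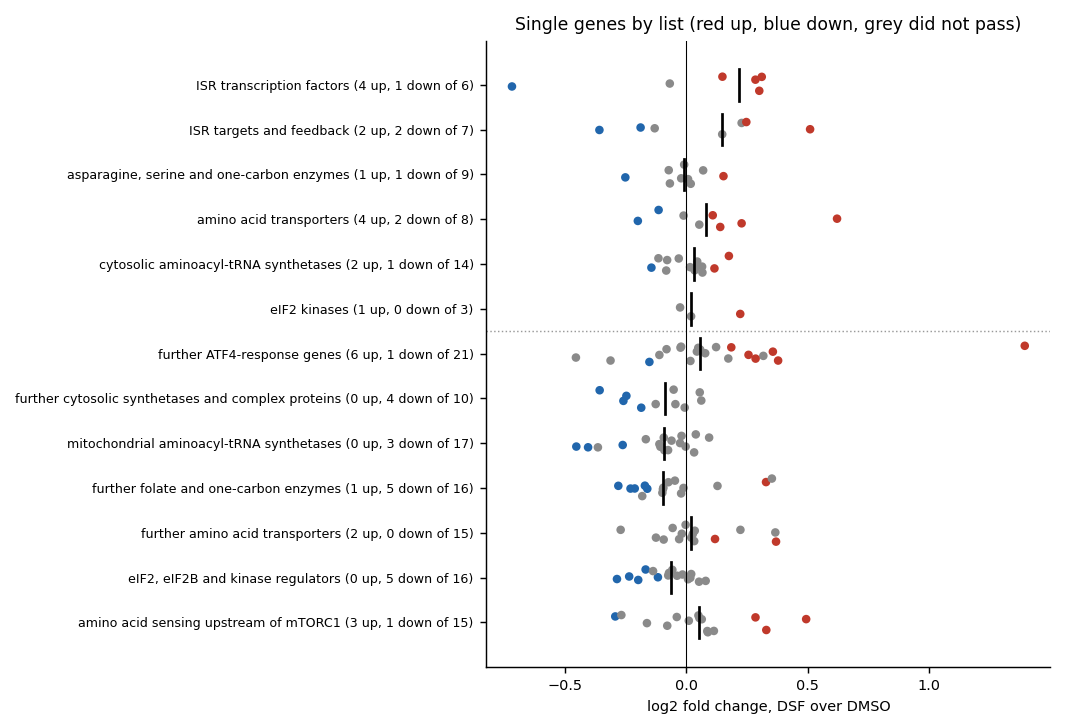
Log2 fold change of DSF over DMSO (x axis) of every tested gene, with a row for each of the 6 roles above the dotted line and the 7 further lists below it, red for a rise, blue for a fall, grey for genes that did not pass and a black bar for the median. Atf3 stands alone at 1.39, and Cebpb lies farthest to the left.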

How the data were processed

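RNA of 3 DMSO and 3 DSF samples was sequenced after SMARTER library preparation for mRNA, as the labels' protocols state, on build GRCm38 (mm10), per the submitters' processing notes. No source used here gives the aligner, counter, annotation release or strandedness. The authors deposited estimated counts per gene and library (expected counts, 12.1 to 12.9% of them not whole), TPM per library and group, and, in a file titled as DESeq2 output, fold changes, log2 fold changes and p-values. Mean TPM headed DO and DF equalled those of the A and B columns in all 55536 genes within 0.0001, and the column numbers were read as replicate numbers. The number of per-sample value columns not used was 0.

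The design assumed whole counts, so estimated counts were rounded. Genes passing filterByExpr (14318) were scaled by TMM (factors 0.9952 to 1.0053) and tested between groups in edgeR 4.0.16 (R 4.3.3) with its quasi-likelihood F test, robust setting, and Benjamini-Hochberg adjustment over all tested genes. Standard errors were derived from each log2 fold change and its F value, with 95% intervals from the test's degrees of freedom. The 3-count floor was 0.137 to 0.166 CPM and covers counting error only. Between replicates, chi-square divided by its degrees of freedom was 2.16 to 4.01, so libraries differed by more than counting error. That does not show separate animals or cultures. Each library counted as a sample on the labels' word. Alternatives used limma 3.58.1, DESeq2 1.42.0, other scalings and filters, a replicate block and each library left out. Library-by-library values were given for up to 5 called genes of smallest p per role and for Atf4, Ddit3, Trib3, Asns, Chac1 and the eIF2 kinases, and up to 3 called genes per further list were named. Other genes were named after their values were seen. The genes and lists were chosen with earlier results of these data known. Positions and exon overlaps came from GENCODE M21, in which all 55536 identifiers were found, and 16 of the 47 genes share exon sequence with another gene. The test was checked on simulated data. The values of 1 further gene and 1 sequence window are not reported here.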

Additional observations from a re-analysis of the deposited data

How the results depend on the processing

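Counting error and 3 libraries a group limit Nupr1, Chac1, Stc2, Aldh1l2 and Cebpb, the 5 genes under 5 CPM. With limma on log2(TPM + 1), 837 genes were higher and 546 lower over all genes, 9 and 2 of the 47, and 8 and 6 on the further lists, and the median log2 fold change of the 47 was 0.059. DESeq2 called 1216 higher and 1123 lower over all genes, 12 and 5 of the 47, and 9 and 12 on the further lists. The cause of these differences was not tested. Leaving out 1 library each, genes higher ran from 1334 to 1595 and lower from 1231 to 1432 over all genes, from 11 to 14 and from 3 (without DSF library 1) to 7 of the 47, and from 9 to 11 and from 12 (without DSF library 3) to 17 on the further lists. The log2 fold change of Eif2ak4, which did not pass, ran from -0.0061 (without DMSO library 2) to 0.047 (without DMSO library 1). DESeq2 size factors, library totals and other filters changed no count by over 1.5 times.

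Same-numbered libraries of the groups deviated together only weakly, with correlations of 0.045, 0.035 and 0.055 over genes, although every library correlated best with its own number. The labels state no pairing, and correlations this weak do not settle whether the numbers pair the samples. With the replicate number as a replicate block, 1925 genes were higher and 1904 lower, 15 and 10 of the 47, and 12 and 23 on the further lists.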
